A study of Homo sapiens with 4 samples.

Results

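The genes described here are the hormone receptors, the growth factor receptor ERBB2 and the lineage transcription factors by which breast cancers are sorted into luminal, HER2-positive and basal-like subtypes. They were chosen by name as ESR1, PGR, ERBB2, GATA3, FOXA1, FOXC1, SOX10, ELF5 and TP63, which are 9 of the 50653 genes listed in the deposited RNA-seq table, and each matched 1 row by its Ensembl identifier. A mean FPKM of at least 1 over all libraries was reached by 6 of the 9. PGR, SOX10 and ELF5 fell below it and entered no test. FPKM is the number of fragments of a gene scaled to the length of its transcripts and to the depth of sequencing, so it compares levels between genes per length.

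The study depleted quinolinate phosphoribosyltransferase (QPRT), an enzyme of de novo NAD synthesis, in BT-20 and MDA-MB-468, 2 established lines of human triple-negative breast cancer. There were 4 libraries from total RNA, 1 for each combination of cell line and shRNA, and no combination was replicated. Cells of each line had been transduced with lentivirus carrying a control or a QPRT-targeting short hairpin RNA, the latter in pLKO.1-puro, and selected with puromycin. The lines were grown in different media, EMEM for BT-20 and Leibovitz L-15 for MDA-MB-468, both with fetal bovine serum, so the line and the medium cannot be told apart. No source used here says whether the selected cells were clones or pools.

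In the breast, the estrogen receptor encoded by ESR1 binds DNA at sites opened by the pioneer factor FOXA1, and GATA3 acts with both to maintain the luminal program, of which PGR is a classical target. FOXC1 and SOX10 are used as marks of basal-like tumors, TP63 encodes p63, the master regulator of stratified and basal epithelium, and ELF5 directs the milk-secreting alveolar fate. A tumor is called triple-negative when the estrogen and progesterone receptors are not found by staining and ERBB2 is not overexpressed, which are protein criteria and differ from an RNA level.

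The libraries held between 10321996 and 10945948 fragments, and QPRT itself was listed at 249 and 40.5 FPKM in the control and QPRT shRNA libraries of BT-20 and at 117 and 18.3 FPKM in those of MDA-MB-468. All 6 epithelial marker genes (KRT8, KRT18, EPCAM, CDH1, KRT7 and KRT19) were well above the filter in every library, with a summed level of 7238 to 12189 FPKM. The epithelial label of both lines was thus met by its markers. Genes of other cell types differed between lines or shRNAs. The 5 endothelial genes summed to 101 and 140 FPKM in BT-20 and to 4.21 and 4.92 FPKM in MDA-MB-468. CDH5 made up nearly all of the BT-20 sums, the MDA-MB-468 sums were shared among CDH5, KDR and PECAM1, and TEK was near 0 throughout. The 18 intestinal and gastric genes summed to 60.7 and 119 FPKM in the control shRNA libraries of BT-20 and MDA-MB-468 and to 28.1 and 29.1 FPKM in the QPRT shRNA libraries. The 5 plasma cell genes summed to 32.5 and 76.3 FPKM in the same control libraries and to 15.2 and 15.1 FPKM with QPRT shRNA. Fibroblast genes summed to at most 33.3 FPKM in any library, mostly COL1A1, with DCN near 0, and immune cell genes to 1.42 to 26.3 FPKM, nearly all CD14, with CD3E at or near 0. The part of all these genes in the differences below was not tested.

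ERBB2 was the most abundant of these genes in BT-20, and FOXA1 in MDA-MB-468. In both BT-20 libraries the order was ERBB2, FOXA1 and GATA3, and the ranges of the 3 did not overlap. FOXC1 and ESR1 followed at overlapping levels, from 4.32 to 7.03 FPKM, with TP63 below both. In MDA-MB-468 the order was FOXA1, ERBB2, GATA3 and FOXC1, again without overlap, and ESR1 lay within the range of TP63, from 0.998 to 3.54 FPKM. Per length, the ERBB2 level lay above 92.1% to 92.4% of the tested genes in BT-20 and above 78.9% to 81.8% in MDA-MB-468.

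**Figure D1:**
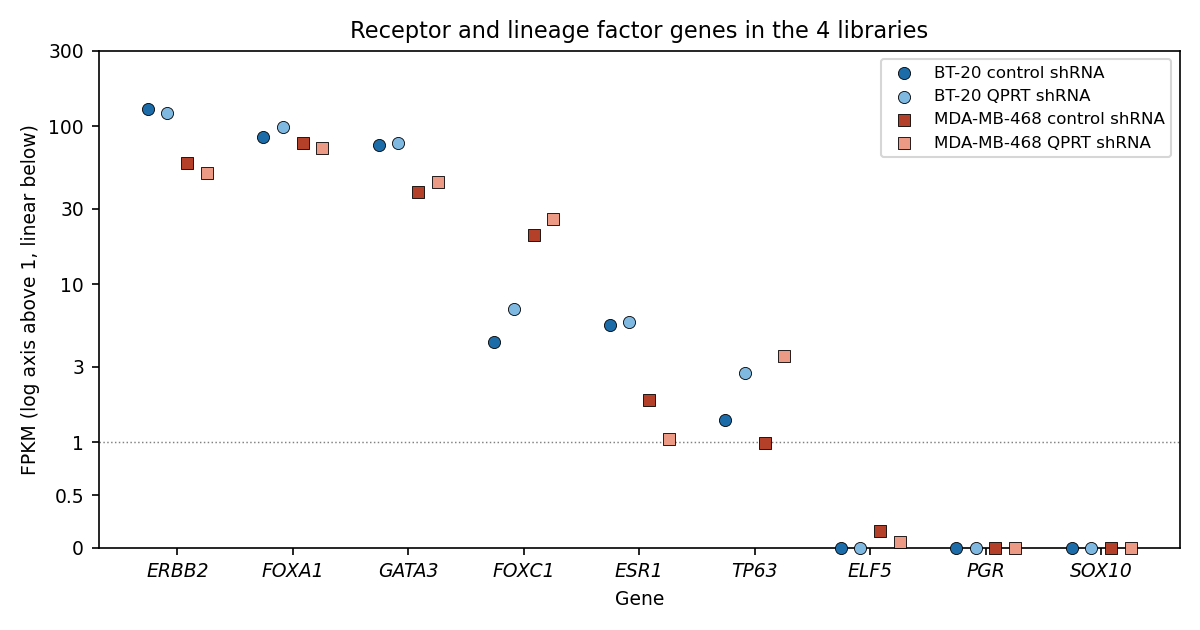
FPKM of the 9 genes (x axis) in each of the 4 libraries (y axis, logarithmic above 1 and linear below), with circles for BT-20, squares for MDA-MB-468, dark symbols for control shRNA and pale symbols for QPRT shRNA. ERBB2, GATA3 and ESR1 were higher in both BT-20 libraries, FOXC1 was higher in both MDA-MB-468 libraries, and PGR and SOX10 sit at 0.

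Sequences upstream of the start sites are shown for the genes that differed between the lines, or that gave the largest shRNA difference (TP63), where RefSeq (GRCh38.p14) gives a 250-base window that is free of GENCODE 29 exons. Windows were found for 8 of the 9 genes, 20 windows in all, of which 8 were free of exons. For ESR1 and GATA3, which have several start sites, the window with an ETS core is shown. Capitals mark that core, CCGGAA or its reverse complement TTCCGG, which ETS-family factors such as ELF5 bind. The windows run 5′ to 3′ on the plus strand and end at the base before the start site.
FOXC1, chr6:1609665-1609914: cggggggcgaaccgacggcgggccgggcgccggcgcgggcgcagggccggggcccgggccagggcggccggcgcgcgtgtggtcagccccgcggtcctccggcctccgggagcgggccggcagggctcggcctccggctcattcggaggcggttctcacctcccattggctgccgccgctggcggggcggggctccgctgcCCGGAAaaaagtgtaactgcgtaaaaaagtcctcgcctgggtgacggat
TP63, chr3:189631139-189631388: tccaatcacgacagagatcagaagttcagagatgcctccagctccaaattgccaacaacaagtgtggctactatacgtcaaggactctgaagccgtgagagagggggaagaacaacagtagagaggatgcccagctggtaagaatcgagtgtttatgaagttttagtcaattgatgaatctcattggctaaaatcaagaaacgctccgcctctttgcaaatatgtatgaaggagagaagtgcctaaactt
GATA3, chr10:8045083-8045332: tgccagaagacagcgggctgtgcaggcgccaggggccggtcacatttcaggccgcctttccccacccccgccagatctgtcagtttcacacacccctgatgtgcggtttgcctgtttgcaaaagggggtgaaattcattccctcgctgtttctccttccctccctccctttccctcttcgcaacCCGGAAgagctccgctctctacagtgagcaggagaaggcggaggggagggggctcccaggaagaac
ESR1, chr6:151808857-151809106: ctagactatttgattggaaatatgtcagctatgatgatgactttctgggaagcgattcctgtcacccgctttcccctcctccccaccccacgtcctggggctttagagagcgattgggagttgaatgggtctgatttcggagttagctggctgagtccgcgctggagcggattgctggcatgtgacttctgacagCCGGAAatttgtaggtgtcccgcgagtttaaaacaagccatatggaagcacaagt

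The FOXC1 window was the richest in G and C of these, at 76.8%, which is higher than 92.5% of the 35116 windows in the table, and it held 37 CpG pairs against a median of 11. The TP63 window was poor in both, at 44.0% and 6 pairs. An ETS core on either strand was found in windows of ESR1, ERBB2, GATA3 and FOXC1, in 5 of the 20 windows, and in 14.5% of all windows of that length. None of the letters searched lay in the TP63 window. The other motifs, also searched on both strands, were the forkhead core TGTTTAC (2.98% of all windows, and among the 9 genes in ELF5), the GATA core AGATAA (9.17%, none), the nuclear receptor half-site AGGTCA (12.1%, none), the SOX core ACAAAG (13.7%, ESR1, GATA3 and FOXA1) and the TATA box TATAAA (10.7%, GATA3). A match describes the letters only and is not a bound site.

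The comparison of the lines asks how these genes differ between 2 cancers that share the triple-negative label. ESR1, ERBB2 and GATA3 were higher in BT-20 and FOXC1 was higher in MDA-MB-468, while FOXA1 and TP63 did not pass the test. The fit was limma on log2(FPKM + 1) with cell line and shRNA as terms over 14321 genes, with Benjamini-Hochberg adjustment and a threshold of 0.05. It called 3 of the 6 tested genes higher in BT-20, beside 24.4% of all tested genes, and 1 of the 6 higher in MDA-MB-468, beside 30.7% of all. The median difference, BT-20 minus MDA-MB-468, was 0.58 on the log2(FPKM + 1) scale over the 6 genes and -0.10 over all tested genes. The libraries of a line served as its replicates although their shRNAs differed. The 1 residual degree of freedom per gene is how far the shRNA difference varied between the lines. The eBayes step drew each variance toward a trend over all tested genes. The p-values therefore rest on that pooled variance and not on replicate spread within a line.

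ESR1, the estrogen receptor alpha gene (ENSG00000091831, chr6:151656691-152129619, plus strand, GRCh38), was transcribed in both lines at a low level. Its FPKM was 5.51 in BT-20 with control shRNA and 5.76 with QPRT shRNA, against 1.87 and 1.05 in MDA-MB-468. Both BT-20 libraries lay above both MDA-MB-468 libraries, and the lines did not overlap. The line means were 5.64 ± 0.172 and 1.46 ± 0.580 FPKM (SD, n = 2 libraries each). The difference was 1.45 ± 0.29 (SE) on the log2(FPKM + 1) scale, or 2.74-fold in FPKM + 1, with an adjusted p of 1.81e-06 in limma. That scale understates folds of low genes, and the ratio of the mean FPKM was 3.87. These levels rest on 152 and 163 fragments in BT-20 and on 53 and 28 in MDA-MB-468. The ratio of fragments per library, BT-20 over MDA-MB-468, was 2.96 (exact 95% Clopper-Pearson interval 2.15 to 4.12) with control shRNA and 5.51 (3.67 to 8.55) with QPRT shRNA. These intervals cover counting error only, since PCR copies cannot be told from separate molecules here.

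PGR, the progesterone receptor gene and a classical estrogen receptor target (ENSG00000082175, chr11:101029624-101130524, minus strand), was listed at 0 in all 4 libraries. A count of 0 allows up to 3 fragments, equal to 0.0858 to 0.0910 FPKM at these depths. PGR shares 812 of its 15404 exonic bases with PGR-AS1 on the opposite strand, and how such fragments were counted is not given in the sources used here. ESR1 was thus detected in every library without any listed PGR.

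ERBB2, which encodes HER2 (ENSG00000141736, chr17:39687914-39730426, plus strand), was listed at 129 and 122 FPKM in BT-20 with control and QPRT shRNA and at 58.1 and 50.7 FPKM in MDA-MB-468. The lines were well apart and the libraries of each line were close. Means were 125 ± 4.94 and 54.4 ± 5.24 FPKM (SD, n = 2 libraries each). The difference of 1.19 ± 0.20 (SE) on the log2(FPKM + 1) scale, 2.29-fold, had an adjusted p of 2.29e-08 in limma. ERBB2 rested on 1137 to 2974 fragments, so its counting error was small. It shares 765 of 10321 exonic bases with MIEN1 and PGAP3.

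The genes that flank ERBB2 on chromosome 17, which are co-amplified with it in HER2-positive tumors, were mostly at like levels in the lines. Of 14 listed, 9 passed the filter, with 2 called higher in BT-20 (beside 24.4% of all), 1 called higher in MDA-MB-468 (beside 30.7%) and a median difference of 0.25 on the log2(FPKM + 1) scale. GRB7, an adaptor protein that binds HER2, had 38.6 and 46.9 FPKM in BT-20 and 32.9 and 38.7 FPKM in MDA-MB-468, a difference of 0.25 ± 0.22 (SE) with an adjusted p of 0.331 in limma. GRB7 overlapped between the lines, where ERBB2 did not. STARD3, a cholesterol transporter, did not pass the test either, at -0.21 ± 0.21 (SE). It was slightly lower in BT-20, without overlap (50.7 and 49.7 against 53.4 and 63.2 FPKM). ORMDL3, a regulator of sphingolipid synthesis, was higher in BT-20 (60.2 and 62.2 against 37.7 and 42.1 FPKM, adjusted p = 0.00893). PGAP3, a remodeler of GPI anchors that shares exonic bases with ERBB2, was higher in BT-20 as well (0.55 ± 0.24, adjusted p = 0.0412). PPP1R1B, a phosphatase inhibitor, was the gene called higher in MDA-MB-468 (0.552 and 0.336 against 9.77 and 9.23 FPKM). It was under 1 FPKM in both BT-20 libraries and passed the filter through MDA-MB-468 alone, so its direction was largely set by the filter. GRB7 and STARD3 were named after their values were seen.

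GATA3, the zinc finger factor of luminal differentiation (ENSG00000107485, chr10:8045378-8075203, plus strand), was listed at 76.1 and 78.1 FPKM in BT-20 with control and QPRT shRNA and at 38.6 and 44.5 FPKM in MDA-MB-468. The BT-20 libraries were the higher ones, with no overlap. Means were 77.1 ± 1.40 and 41.5 ± 4.17 FPKM (SD, n = 2 libraries each). The difference was 0.88 ± 0.21 (SE) on the log2(FPKM + 1) scale, 1.84-fold, with an adjusted p of 8.28e-05 in limma. It was the smallest of the called differences among the 6 genes and the only one of them under 2-fold.

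FOXA1, the pioneer factor that opens chromatin for the estrogen receptor (ENSG00000129514, chr14:37589984-37596059, minus strand), was listed at 85.9 and 99.5 FPKM in BT-20 with control and QPRT shRNA and at 78.2 and 72.9 FPKM in MDA-MB-468. Both BT-20 values were above both MDA-MB-468 values, but the gap between the control libraries was small. Means were 92.7 ± 9.61 and 75.5 ± 3.77 FPKM (SD, n = 2 libraries each). The difference of 0.29 ± 0.20 (SE) on the log2(FPKM + 1) scale did not pass the test (adjusted p = 0.219, limma). The ratio of fragments, BT-20 over MDA-MB-468, was 1.10 (1.01 to 1.19) with control shRNA and 1.37 (1.26 to 1.48) with QPRT shRNA. Over the 4 libraries its level lay above 85.3% to 90.0% of the tested genes.

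FOXC1, a forkhead factor of mesenchyme and a mark of basal-like breast cancer (ENSG00000054598, chr6:1609972-1613897, plus strand), went the other way. It was listed at 4.32 and 7.03 FPKM in BT-20 with control and QPRT shRNA and at 20.5 and 25.8 FPKM in MDA-MB-468. The lowest MDA-MB-468 library was well above the highest BT-20 library. Means were 5.67 ± 1.92 and 23.1 ± 3.74 FPKM (SD, n = 2 libraries each). FOXC1 had the largest difference of the 6 genes, -1.88 ± 0.25 (SE) on the log2(FPKM + 1) scale, with an adjusted p of 4.47e-13 in limma. This is 3.67-fold higher in MDA-MB-468 in FPKM + 1, and the ratio of the mean FPKM was 4.08. It rested on 180 and 301 fragments in BT-20 and on 880 and 1044 in MDA-MB-468.

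SOX10, the neural crest factor that also marks many triple-negative tumors (ENSG00000100146, chr22:37970686-37987422, minus strand), was listed at 0 in all 4 libraries, where a count of 0 allows up to 0.175 to 0.186 FPKM. Of its 3710 exonic bases, 89 are shared with POLR2F on the opposite strand. POLR2F, a subunit of RNA polymerases that cells need in general, was itself listed at only 0.209, 0.102, 2.74 and 6.47 FPKM (BT-20 control and QPRT, MDA-MB-468 control and QPRT). The SOX10 value is therefore given only as listed. Of 11 SOX10-associated glial and melanocyte genes, 2 passed the filter, and the glial gene S100B was listed at 0. The 2 were PMEL, a melanosome protein (2.04 and 3.57 FPKM in BT-20, 0.474 and 2.10 FPKM in MDA-MB-468), and MITF, the melanocyte factor (6.88 and 9.21, 4.23 and 5.07 FPKM). Both were called higher in BT-20, at adjusted p-values of 0.0151 and 0.0244 in limma, beside 24.4% of all tested genes called higher there.

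ELF5, the ETS factor of the milk-secreting lineage (ENSG00000135374, chr11:34478793-34513805, minus strand), was listed at 0 in both BT-20 libraries and at 0.157 and 0.0554 FPKM in MDA-MB-468 with control and QPRT shRNA. These are 3 and 1 fragments, so a difference was not detectable at this depth. The ratio of QPRT to control shRNA in MDA-MB-468 was 0.353, with an interval of 0.00673 to 4.40. Among 8 genes of the ELF5-associated milk program, the casein genes CSN1S1, CSN2 and CSN3 and the lactalbumin gene LALBA were listed at 0 in every library. The 3 that passed the filter were all called higher in MDA-MB-468, beside 30.7% of all tested genes. They were PRLR, the prolactin receptor (means of 0.606 and 20.2 FPKM), STAT5A, its transcription factor (0.0554 and 0.162 against 16.4 and 17.8 FPKM), and the mucin MUC15 (1.70 and 1.98 against 10.8 and 8.38 FPKM). PRLR and STAT5A were under 1 FPKM in both BT-20 libraries and passed the filter through MDA-MB-468 alone. The direction of these 2 was thus largely set by the filter.

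TP63, which encodes p63 (ENSG00000073282, chr3:189631416-189897279, plus strand), did not separate the lines. Its FPKM was 1.39 and 2.74 in BT-20 with control and QPRT shRNA and 0.998 and 3.54 in MDA-MB-468. The 2 lines overlapped, and the split was by shRNA. Means were 2.06 ± 0.959 and 2.27 ± 1.80 FPKM (SD, n = 2 libraries each). The difference between the lines was -0.01 ± 0.30 (SE) on the log2(FPKM + 1) scale (adjusted p = 0.977, limma).

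**Figure D2:**
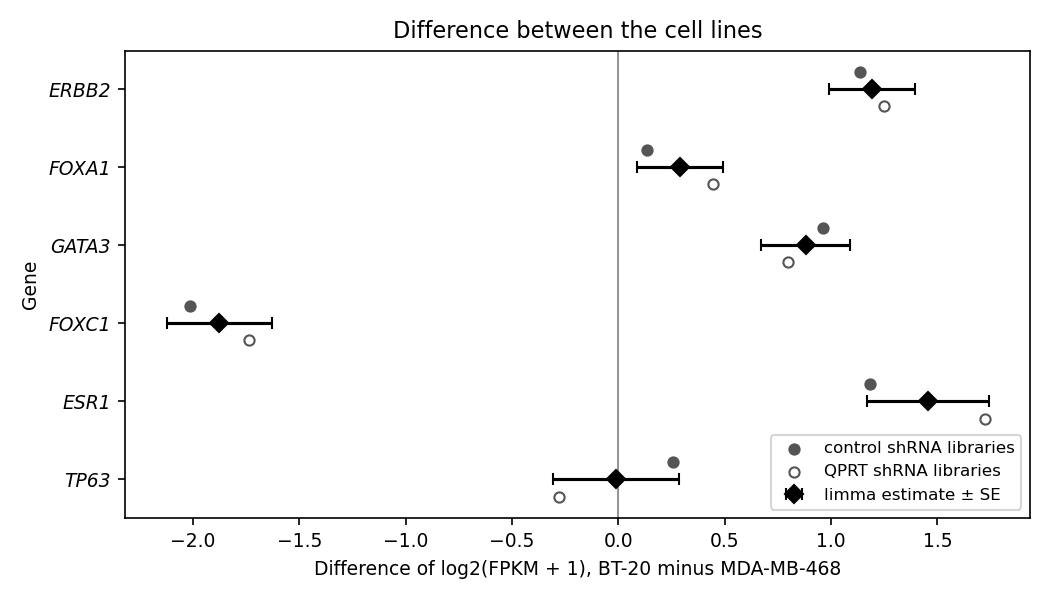
Difference between the lines, BT-20 minus MDA-MB-468 on the log2(FPKM + 1) scale (x axis), for the 6 genes that passed the filter (y axis), as the limma estimate with its SE (diamonds and bars) and as the difference of the control shRNA libraries (filled circles) and of the QPRT shRNA libraries (open circles). ESR1, ERBB2 and GATA3 lie to the right of 0, FOXC1 lies at -1.88, and the circles of TP63 fall on both sides of 0.

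Relatives of these genes, coded in the same families, were compared between the lines as well. Of 20 paralogues, 12 passed the filter, with 3 called higher in BT-20 (24.4% of all tested genes were) and 6 called higher in MDA-MB-468 (30.7% of all), at a median difference of -0.63 on the log2(FPKM + 1) scale. The ERBB4 gene was listed at 0 throughout. Among nuclear receptors, the glucocorticoid receptor gene NR3C1 was higher in MDA-MB-468 (11.9 and 13.3 against 19.5 and 21.9 FPKM, adjusted p = 0.0105), whereas NR3C2 did not pass the test (adjusted p = 0.0972).

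In the ERBB family the order between the lines was turned around. EGFR was listed at 179 and 262 FPKM in BT-20 and at 820 and 951 FPKM in MDA-MB-468. The lines were far apart, with a difference of -2.02 ± 0.19 (SE) on the log2(FPKM + 1) scale and an adjusted p of 1.87e-25 in limma. ERBB3, the partner of HER2 that lacks an active kinase, had 59.3 and 64.4 against 58.6 and 46.6 FPKM and did not pass the test (0.24 ± 0.21, adjusted p = 0.337). ERBB2 was therefore the called member that was higher in BT-20, and EGFR the one that was higher in MDA-MB-468.

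The GATA family differed by member. GATA2, a factor of blood and prostate, was listed at 62.7 and 58.6 FPKM in BT-20 and at 5.22 and 4.49 FPKM in MDA-MB-468, and at 3.40 ± 0.23 (SE) on the log2(FPKM + 1) scale its difference exceeded that of GATA3. In BT-20 it was nearly as abundant as GATA3. GATA4 was also higher in BT-20 (5.17 and 4.08 against 0.885 and 0.125 FPKM), and GATA6 was higher in MDA-MB-468 (1.39 and 1.60 against 5.64 and 6.02 FPKM). GATA4 was under 1 FPKM in both MDA-MB-468 libraries and passed the filter through BT-20 alone. Its direction was thus largely set by the filter, and the count and median of the paralogues include it.

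SOX9, a factor of mammary progenitor cells, was present where SOX10 was listed at 0, at 15.6 and 21.8 FPKM in BT-20 and at 47.3 and 60.6 FPKM in MDA-MB-468 (adjusted p = 1.23e-10, limma). The ELF5 relatives ELF3 and EHF, epithelial ETS factors, were abundant. ELF3 was higher in BT-20 (271 and 289 against 168 and 168 FPKM, adjusted p = 0.000412) and EHF was higher in MDA-MB-468 (30.3 and 39.8 against 120 and 86.2 FPKM, adjusted p = 2.20e-12). TP73, a relative of TP63, was higher in MDA-MB-468 (1.18 and 1.81 against 4.51 and 4.51 FPKM, adjusted p = 0.000216).

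Estrogen receptor target genes were mostly higher in MDA-MB-468, the line with less ESR1 RNA. Of 16 listed, 11 passed the filter, 1 was called higher in BT-20 and 8 were called higher in MDA-MB-468 beside 30.7% of all tested genes, with a median difference of -0.64 on the log2(FPKM + 1) scale beside -0.10 over all tested genes. AGR2, a disulfide isomerase of secretory cells, was listed at 1.78 and 1.49 FPKM in BT-20 and at 60.1 and 62.8 FPKM in MDA-MB-468. IGFBP4, a binding protein for insulin-like growth factors, was at 0.0428 and 0.333 against 24.1 and 26.3 FPKM. It was under 1 FPKM in both BT-20 libraries and passed the filter through MDA-MB-468 alone. Its direction was thus largely set by the filter, and the count and median include it. The transcription factor gene MYB (1.06 and 2.35 against 11.1 and 9.58 FPKM) and the ubiquitin ligase gene SIAH2 (22.9 and 18.4 against 45.4 and 57.3 FPKM) were also higher in MDA-MB-468. RARA, a retinoic acid receptor and the gene called higher in BT-20, was at 58.1 and 45.7 against 26.9 and 39.5 FPKM. RARA was named after its values were seen. These genes have other regulators besides the estrogen receptor, and no measurement of receptor activity was analysed here.

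Luminal genes were divided between the lines, while basal genes were mostly higher in MDA-MB-468. Of 16 luminal genes, 15 passed the filter, with 6 called higher in BT-20 (beside 24.4% of all), 7 called higher in MDA-MB-468 (beside 30.7%) and a median difference that rounds to 0.00 on the log2(FPKM + 1) scale. The simple-epithelium keratin genes KRT8 (4010.5 and 4214 against 1719 and 1548 FPKM) and KRT18 (1355 and 1276 against 506 and 436 FPKM), the E-cadherin gene CDH1 (340 and 353 against 76.3 and 76.1 FPKM) and the factor gene TBX3 (10.7 and 7.34 against 0.234 and 0.0354 FPKM) were higher in BT-20. PRLR, the ETS factor gene SPDEF (19.6 and 17.2 against 106 and 107 FPKM), the tight junction gene CLDN3 (11.7 and 8.92 against 59.9 and 68.1 FPKM) and the adhesion gene EPCAM (148 and 181 against 359 and 342 FPKM) were higher in MDA-MB-468. TBX3 was under 1 FPKM in both MDA-MB-468 libraries, as were PRLR and PIP in both BT-20 libraries. These genes passed the filter through the other line alone. Their direction was thus largely set by the filter, and the counts and median include them. PIP was named after its values were seen.

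Of 22 basal genes, 20 passed the filter. In the test, 17 were called higher in MDA-MB-468, beside 30.7% of all tested genes, and 1 higher in BT-20, beside 24.4%. The median difference was -2.19 on the log2(FPKM + 1) scale. Among the 17, KIT, DSC3, BCL11A, KRT14, KRT6B and GABRP were under 1 FPKM in both BT-20 libraries and passed the filter through MDA-MB-468 alone. Their direction was thus largely set by the filter, and the count and median include them. KRT17, a keratin of basal and stressed epithelium, was listed at 2.76 and 2.51 FPKM in BT-20 and at 237 and 373 FPKM in MDA-MB-468. ID4, a repressor of luminal fate (2.57 and 3.91 against 104 and 110 FPKM), the WNT antagonist SFRP1 (3.71 and 3.31 against 77.1 and 66.0 FPKM) and TRIM29 (8.52 and 14.3 against 157 and 221 FPKM) had the next largest called differences. The exception was the P-cadherin gene CDH3, at 427 and 356 FPKM in BT-20 and 33.5 and 49.2 FPKM in MDA-MB-468, which was named after its values were seen. FOXC1 was thus higher in the line in which most of the other basal genes were higher.

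Of 12 p63-associated squamous genes, 11 passed the filter. Of these, 4 were called higher in BT-20, beside 24.4% of all tested genes, and 4 higher in MDA-MB-468, beside 30.7%. The median difference was -0.10 on the log2(FPKM + 1) scale, equal at this rounding to that of all tested genes. The envelope protein gene IVL (21.6 and 20.8 against 4.71 and 1.98 FPKM) was higher in BT-20. KRT13, also called higher in BT-20 and named after its values were seen, was under 1 FPKM in both MDA-MB-468 libraries. It passed the filter through BT-20 alone, so its direction was largely set by the filter, and the count and median include it. The desmosome genes DSP (14.2 and 22.7 against 104 and 92.6 FPKM) and PERP (29.9 and 34.7 against 101 and 103 FPKM) were higher in MDA-MB-468. TP63 itself did not differ beyond its spread between the lines.

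**Figure D3:**
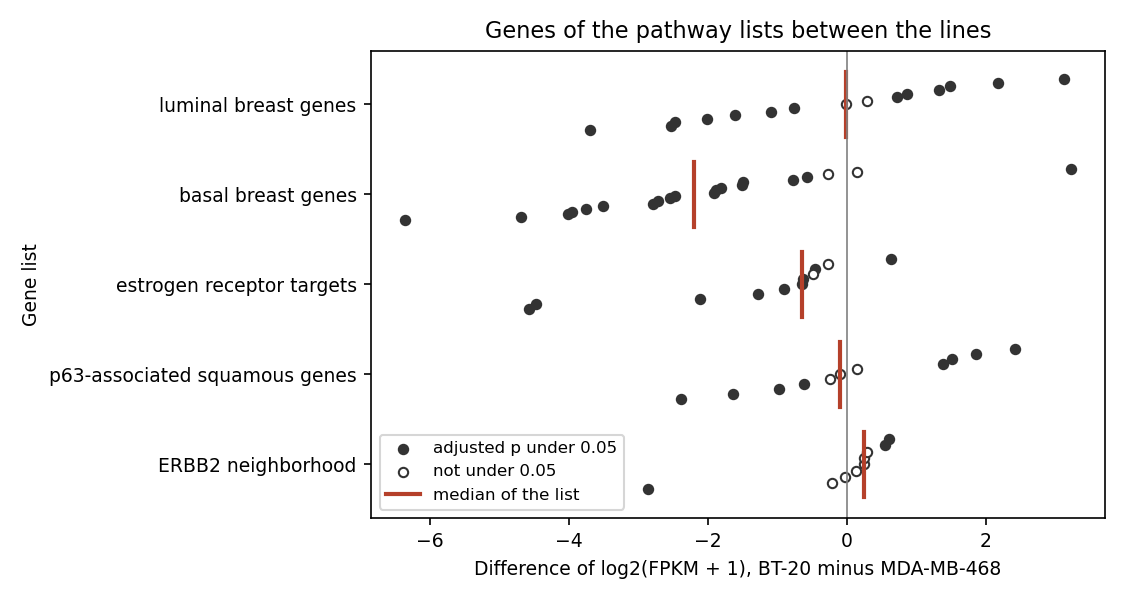
Difference between the lines, BT-20 minus MDA-MB-468 on the log2(FPKM + 1) scale (x axis), for the tested genes of 5 lists (y axis), with filled points for an adjusted p under 0.05, open points for the others and a red bar at the median. Of the 20 basal genes, 17 lie to the left of 0 with filled points, whereas the luminal genes fall on both sides.

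The genes closest to each called gene over the 4 libraries, by Euclidean distance of log2(FPKM + 1), were measured as a description. For ERBB2 they were YME1L1 (distance 0.12) and STXBP3 (0.15), with 58 genes within 0.5. GATA3 lay closest to GID8 and FBRS (0.10 and 0.11), with 116 genes within 0.5, and ESR1 to ATP6V0E2-AS1 and TBC1D8B (0.21 and 0.29), with 15. FOXC1 stood most apart, with TUBA5P at 0.38 and 13 genes within 0.5. No other of the 9 genes was among these nearest neighbors.

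The shRNA comparison asks whether these genes moved with QPRT depletion. None of the 6 tested genes was called over both lines, beside 0.628% of all tested genes called (90, either direction, 687 at an unadjusted p under 0.05, limma). The lines stood in for replicates in that fit. TP63 came nearest, at 0.92 ± 0.30 (SE) higher with QPRT shRNA on the log2(FPKM + 1) scale, with an unadjusted p of 0.00196 and an adjusted p of 0.195. Without the mean trend in the variance prior the adjusted p was 0.0368, and over the other alternatives run it was 0.191 to 1.00, so the call depends on that setting.

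Within a line there is 1 library per shRNA and no test. In BT-20, none of the 6 genes was higher at 2-fold or more on the log2(FPKM + 1) scale, beside 1.05% of all tested genes, and none was lower, beside 0.649%. In MDA-MB-468, 1 of the 6, TP63, was higher at 2-fold or more, beside 1.03% of all, and none was lower, beside 0.866%.

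TP63 rested on 31 and 63 fragments in BT-20 (control and QPRT shRNA) and on 23 and 77 in MDA-MB-468. The ratio of QPRT to control shRNA was 1.98 (1.27 to 3.15) in BT-20 and 3.55 (2.20 to 5.93) in MDA-MB-468. Both QPRT shRNA libraries were above both control libraries. The p63-associated squamous genes had a median difference of 0.21 for BT-20 and 0.11 for MDA-MB-468 on the log2(FPKM + 1) scale, with none called.

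FOXC1 was also higher with QPRT shRNA in each line. The ratio of fragments was 1.63 (1.35 to 1.97) in BT-20 and 1.26 (1.15 to 1.38) in MDA-MB-468. The difference over both lines, 0.46 ± 0.25 (SE) on the log2(FPKM + 1) scale, did not pass the test (adjusted p = 1.00, limma). In the BT-20 QPRT shRNA library, 35 genes that were at 20 FPKM or more in MDA-MB-468 and at 0.1 or less in the BT-20 control stood at a median of 0.450% of the MDA-MB-468 level. Its part in the BT-20 values was not tested.

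ESR1 differed by shRNA in MDA-MB-468 but not in BT-20 beyond counting error. The ratio of QPRT to control shRNA was 0.560 (0.341 to 0.902) in MDA-MB-468, from 53 to 28 fragments, and 1.04 (0.832 to 1.31) in BT-20. The intervals cover counting error only, and whether the lines differ in this response could not be tested. ERBB2 had ratios below 1 in both lines, 0.946 (0.898 to 0.996) in BT-20 and 0.872 (0.806 to 0.944) in MDA-MB-468. GATA3 had ratios of 1.03 (0.954 to 1.10) and 1.15 (1.04 to 1.28), and FOXA1 of 1.16 (1.07 to 1.25) and 0.932 (0.853 to 1.02). On the log2(FPKM + 1) scale, the shRNA difference of each of these 4 genes within a line was smaller in size than its limma estimate between the lines. For FOXA1 that estimate did not pass the test. The FOXA1 difference between the control shRNA libraries, 0.13, was smaller than its shRNA difference in BT-20, 0.21.

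**Figure D4:**
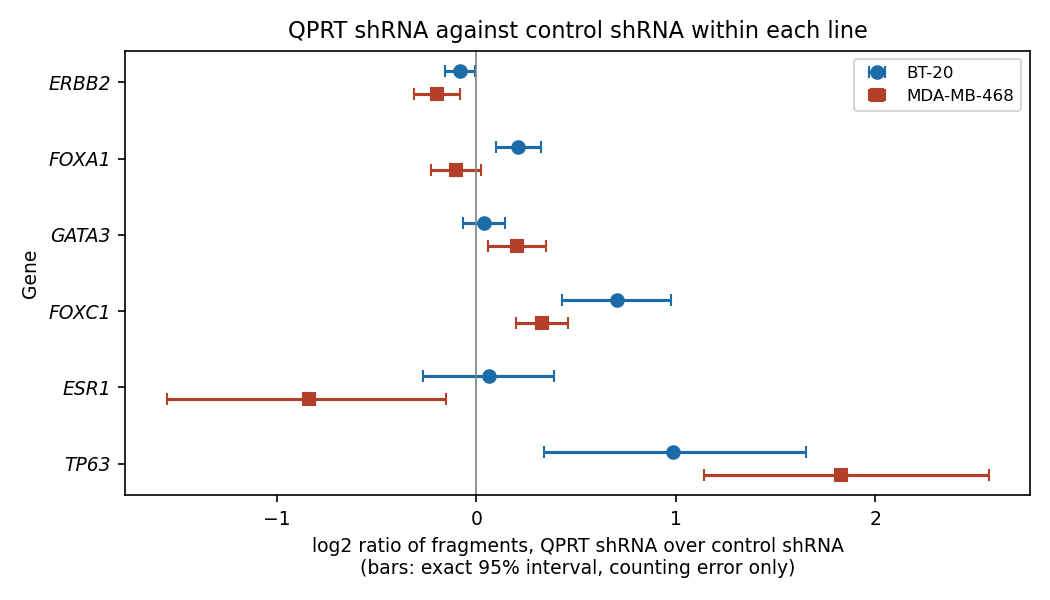
Ratio of fragments with QPRT shRNA over control shRNA, on a log2 scale (x axis), for the 6 genes that passed the filter (y axis), in BT-20 (blue circles) and MDA-MB-468 (red squares), with exact 95% intervals that cover counting error only. TP63 and FOXC1 lie above 0 in both lines, and ESR1 lies below 0 in MDA-MB-468 alone.

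Basal genes were also followed by shRNA within each line, and whether the lines differ was not tested. In MDA-MB-468, 18 of 20 were higher by any amount (7370 of 14321 tested genes were), with a median of 0.52 on the log2(FPKM + 1) scale beside 0.01 over all tested genes. In BT-20, 12 of 20 were higher (8072 of 14321 were), with a median of 0.03 beside 0.05. KIT was listed at 0 in both BT-20 libraries, and DSC3, BCL11A, KRT14, KRT6B and GABRP were under 1 FPKM there. Genes that low can hardly move on this scale, so the 2 medians are not a like comparison. Over both lines 2 basal genes were called higher and none lower, beside 38 called higher and 52 called lower of 14321 tested genes. CAV1, the caveolin gene, was at 12.2 and 22.4 FPKM with control and QPRT shRNA in BT-20 and at 21.3 and 39.8 FPKM in MDA-MB-468 (adjusted p = 0.0364, limma). KRT14, the keratin of basal epithelium, was at 0.330 and 0.161 FPKM in BT-20 and at 5.76 and 40.6 FPKM in MDA-MB-468 (adjusted p = 0.00598, limma), so its call rests on MDA-MB-468. Both were named because they were called.

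Other basal genes past 2-fold within a line were KIT (2.06 and 9.04 FPKM) and KRT6B (4.56 and 11.8 FPKM), both higher in the QPRT shRNA library of MDA-MB-468, and ANXA8 (2.14 and 5.31 FPKM, higher) and CRYAB (40.8 and 13.6 FPKM, lower) in BT-20. The luminal genes had a median of 0.07 for BT-20 and of -0.15 for MDA-MB-468 on that scale, with none called and none past 2-fold. Of the estrogen receptor targets, TFF1, a trefoil peptide that gastric epithelium also makes, was called lower with QPRT shRNA (1.88 and 0 FPKM in BT-20, 3.15 and 0.352 FPKM in MDA-MB-468, adjusted p = 0.000211, limma). TFF1 was under 1 FPKM in both QPRT shRNA libraries and passed the filter through the control shRNA libraries alone. Its direction was thus largely set by the filter. Of the 11 intestinal and gastric genes tested, 7 were called lower in the same comparison, beside 52 of 14321 tested genes. CDH17, 1 of the 7, likewise was under 1 FPKM in both QPRT shRNA libraries, so its direction was largely set by the filter. Of the 3 plasma cell genes tested, 2 (JCHAIN and IGHA1) were called lower, beside the same share. These genes were named after their values were seen where the rule did not name them, and the part of such genes in the TFF1 value was not tested.

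**Figure D5:**
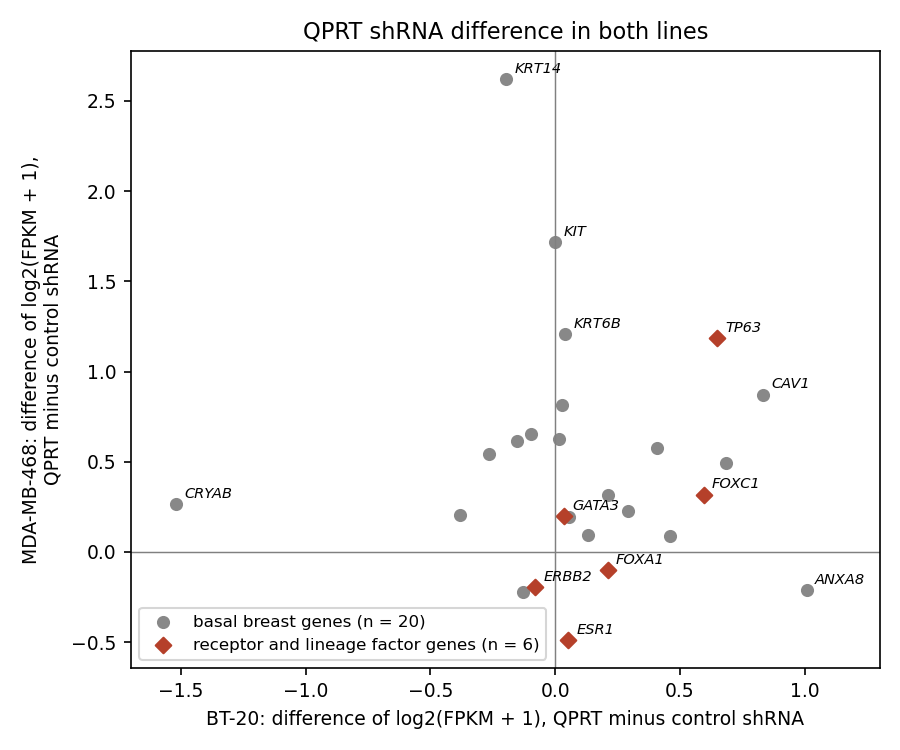
Difference between QPRT and control shRNA on the log2(FPKM + 1) scale in BT-20 (x axis) and in MDA-MB-468 (y axis), for the 6 receptor and lineage factor genes (red diamonds) and the 20 tested basal breast genes (grey circles). TP63, FOXC1 and CAV1 were higher in both lines, KRT14 stands at the top, and ERBB2 lies below 0 on both axes.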

How the data were processed

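The members and the gene lists were chosen with earlier results of these data known. The deposited values are FPKM per Ensembl gene, which the authors made from trimmed Illumina NovaSeq reads of TruSeq libraries. The submitters' processing notes name FastQC, MultiQC, CASAVA, TopHat2 2.0.12 and HTSeq 0.6.1, with no roles. The genome build and annotation are not given in the sources used here. Groups came from the sample titles.

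Symbols (49414 rows) came from the reference gene names, and coordinates, exons and lengths (49839 rows) from GENCODE 29 (GRCh38). Of rows sharing a symbol, the one with the highest mean was used. FPKM times the mean transcript length gave whole fragments, within 0.02, for 97.6% to 97.8% of values above 0 of genes with 1 transcript and for 85.3% to 85.6% over all genes. For ESR1, FOXC1 and GATA3 the length at which all 4 libraries came out whole was used. Fragments served the counting intervals and an alternative only.

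The 14321 genes whose mean FPKM reached 1 were fitted on log2(FPKM + 1), which understates folds of low genes, with limma 3.58.1 in R 4.3.3 (cell line and shRNA terms, eBayes with a trend, Benjamini-Hochberg adjustment, threshold 0.05). The step was tested on simulated data. A gene under 1 FPKM in both libraries of a line passed the filter only through the other line, which largely set its direction. The count test of the study was not run. Within a line a difference of 2-fold or more was counted, with no test, and ratios have exact 95% intervals (scipy 1.17.1). Named genes were the 9 members, QPRT, paralogues past the filter, up to 4 called genes per list with the largest line difference, and the 2 nearest genes of each called member. Some genes that this rule names are not reported here, and counts and medians of lists include them. Alternatives were a pseudocount of 0.1, upper quartile and TPM scaling, no filter, a mean FPKM of at least 5, removal of GC and length trends (lowess fraction 0.3, 99.4% of genes with both values), no eBayes trend, limma-voom on fragments, dropping a term, leaving out a library, a 2-fold minimum and a 1.5-fold threshold.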

Additional observations from a re-analysis of the deposited data

How the results depend on the processing

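The calls of ESR1, ERBB2, GATA3 and FOXC1 between the lines kept their direction in each alternative that fitted them (ESR1 was not fitted with a mean FPKM of at least 5). GATA3 was not called with a 2-fold minimum, and all 4 lost the test without the filter on low values, where 0 of 9 members and 0 of 50626 genes were called (7482 at an unadjusted p under 0.05). The genes called between the lines numbered 7893, 4475 (without BT-20 control), 4722 (without BT-20 QPRT), 4848 (without MDA-MB-468 control) and 4794 (without MDA-MB-468 QPRT shRNA) with a library left out, and 4307 with a 2-fold minimum as well. With 1 library left out and no shRNA term, 4 members were still called, the lone library of a line being assumed to vary like the others. Upper quartile scaling moved the median difference of all genes from -0.10 to 0.00, turned the split of called genes from 3496 higher in BT-20 and 4397 lower to 4030 and 3875, and gave 1.31 for ERBB2, 1.54 for ESR1, 1.00 for GATA3 and -1.77 for FOXC1. The TP63 line difference changed sign, to 0.0394 with a pseudocount of 0.1, 0.0624 with upper quartile scaling, and 0.31 and 0.58 without the BT-20 control and the MDA-MB-468 QPRT shRNA library (range with a library left out -0.60 to 0.58).

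For the shRNA comparison, 90 genes were called, 0 without the filter (813 at an unadjusted p under 0.05), 45 with a mean FPKM of at least 5, 18 with GC and length trends removed (2 higher and 16 lower, beside 38 and 52), and 0 without the cell line term (17 at an unadjusted p under 0.05). Members called were 1 (TP63) without the eBayes trend. The FOXA1 difference turned to -0.0111 with upper quartile scaling. Within lines, 2 members (FOXC1 and TP63) passed a 1.5-fold threshold in BT-20, and 0 passed 2-fold in MDA-MB-468 with a mean FPKM of at least 5, since TP63 was then not tested. Causes were otherwise not tested. Of the other values, 68 of the line comparison and 50 of the shRNA comparison stayed on their side of the threshold. With 28 to 163 fragments for ESR1 and 23 to 77 for TP63, depth limits both. Leaving out a library from the shRNA fit leaves no residual degree of freedom. The labels carry no replicate numbers, and the cell line term is what pairs the shRNA libraries.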
